A study of Mus musculus with 5 samples.

Results

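The cells described here were selected as cardiac macrophages with transcripts of Cxcl9, a chemokine gene induced by interferon-gamma whose product draws T cells, or of Fcgr4, which encodes an activating receptor for the Fc part of IgG. They were chosen by counts of unique molecular identifiers (UMIs, each standing for 1 captured transcript molecule) per cell barcode. At most 10% of a member's UMIs came from mitochondrial genes, C1qa, C1qb and C1qc (subunits of complement C1q, made by macrophages) summed to at least 3 UMIs, and Cxcl9 and Fcgr4 summed to at least 2. The resident macrophage genes Lyve1, Folr2, Timd4 and Cd163 summed to at most 1 UMI, as did the T cell genes Cd3d, Cd3e and Cd3g, and the B cell genes Cd79a and Ms4a1. By this rule 1164 of 47319 barcodes were members, or 1164 of the 38337 that passed the mitochondrial limit (kept barcodes). The measured levels of these 14 genes chose the cells, so their values and the levels of members beside those of other cells are given as descriptions, with no test.

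The hearts came from mice used as a genetic model of the myocarditis that immune checkpoint inhibitors can cause. All mice are given as Pdcd1-/- (Pdcd1 encodes the checkpoint receptor PD-1) in the series' design text: the control group was Ctla4+/+Pdcd1-/- (4 mice) and the disease group Ctla4+/-Pdcd1-/- (10 mice), so the groups differed in 1 copy of Ctla4, which encodes another checkpoint receptor, and neither was wild type. Hearts were digested and pooled, DRAQ5+DAPI- cells (with DNA stained by DRAQ5 and no uptake of DAPI) were sorted, and 5 libraries were made with the 10x Genomics 5-prime chemistry, replicates 1 and 2 from control and replicates 3, 4 and 5 from disease hearts. The genotype labels of replicates 2, 4 and 5 name Pdcd2 or Pdcd3 where the design text names Pdcd1, and the stain's number in the cell labels goes up by 1 from library to library; the design text was followed. The ages of the mice, the mice behind each library and any batches are not given in the sources used here. Libraries are pools of mice, so p-values measure the spread between pools.

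Kept barcodes had a median of 3918 UMIs, and the libraries held between 24991704 and 55053988 UMIs in all. Members were deeper, with a median of 9664 UMIs. Control replicates 1 and 2 had member sums of 3182218 and 151282 UMIs, and disease replicates 3, 4 and 5 had 319577, 6477816 and 1708088 UMIs. Of 46099 barcode sequences, 1208 occurred in more than 1 library, and 1 of them was a member in both. Scrublet, which scores likely doublets (barcodes that hold more than 1 cell), called 3.13% of kept barcodes and 6.01% of members. Transcripts of the targeted genes were counted in both groups and do not check the labels: over kept barcodes Ctla4 had 1722 and 34 UMIs in control hearts against 155, 8101 and 1901 in disease hearts. Pdcd1, which the design text gives as deleted in all mice, had 2387 and 74 UMIs in control hearts against 198, 13192 and 2886 in disease hearts. Whether these transcripts hold the deleted part of the gene cannot be read from counts per gene.

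Macrophages answer interferon-gamma, which T cells and NK cells release, through the receptor chains Ifngr1 and Ifngr2 and the kinases Jak1 and Jak2. Short DNA motifs are known near interferon target genes, gamma-activated sites and interferon-stimulated response elements. Among the induced products are chemokines such as Cxcl9 and Cxcl10, guanylate-binding proteins, antigen-presenting molecules and ligands of checkpoint receptors such as Cd274 (PD-L1). The heart also has resident macrophages, which take up debris and express Lyve1, Folr2, Timd4 and Cd163.

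Members were present in every library, in very unequal numbers. Control replicates 1 and 2 held 268 and 20 members, and disease replicates 3, 4 and 5 held 31, 682 and 163, so disease replicate 4 alone held 58.6%. Their share of kept barcodes was 2.89% (95% Wilson interval 2.57 to 3.25) and 0.358% (0.232 to 0.552) in the controls. In the disease libraries it was 0.533% (0.375 to 0.755), 6.84% (6.37 to 7.36) and 2.12% (1.82 to 2.47). The groups overlapped: control replicate 1 lay above disease replicates 3 and 5. The mean was 1.62% ± 1.79 (SD, n = 2) in control and 3.17% ± 3.28 (SD, n = 3) in disease, a difference of 1.54 percentage points (exact permutation test of libraries, two-sided, p = 0.8, where the smallest possible p is 0.1). Without disease replicate 4 the difference was -0.298 points. With each barcode thinned to 2000 UMIs and shallower barcodes left out, the shares were 1.56% and 0.139% in control hearts against 0.285%, 8.14% and 1.85% in disease hearts. Control replicate 1 then lay below disease replicate 5 and still above disease replicate 3, and the difference was 2.58 points (two-sided exact permutation p = 0.6).

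As a share of C1q-positive barcodes the members also ranged widely. Not all of these barcodes were macrophages by their genes: 1262 with a C1q sum of 3 to 19 and few resident or rule UMIs had more fibroblast (34582 CPM) than core macrophage transcripts (2445 CPM). Of the barcodes with a C1q sum of at least 3 and few T or B cell UMIs, 14.3% (95% Wilson interval 12.8 to 16) and 3.77% (2.46 to 5.76) were members in control replicates 1 and 2. In disease replicates 3, 4 and 5 the shares were 4.53% (3.21 to 6.36), 35.9% (33.8 to 38.1) and 17.7% (15.4 to 20.3). The 2 highest shares were in disease replicates 4 and 5, but disease replicate 3 lay below control replicate 1. The mean was 9.04% ± 7.45 (SD, n = 2) in control and 19.4% ± 15.7 (SD, n = 3) in disease, 10.3 percentage points apart (two-sided exact permutation p = 0.4). Leaving out disease replicate 4 reduced the difference to 2.08 points, disease replicate 3 raised it to 17.8, control replicate 1 raised it to 15.6 and control replicate 2 reduced it to 5.07. With thinning to 2000 UMIs it was 14.7 points (two-sided exact permutation p = 0.4), and control replicate 1 (9.3%) again lay between disease replicates 3 (2.49%) and 5 (15.4%). With a C1q sum of at least 20 the shares were 19% and 4.48% in control hearts against 4.25%, 41.5% and 19.7% in disease hearts, so disease replicate 3 lay below both controls, and the difference was 10.1 points (two-sided exact permutation p = 0.5). The intervals cover counting error only.

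Which of the 2 genes qualified a member differed between libraries. Over all members, 752 (64.6%) had UMIs of both Cxcl9 and Fcgr4, 176 (15.1%) of Cxcl9 only and 236 (20.3%) of Fcgr4 only. Members with Fcgr4 only made up 45.5% and 75% of the members of control replicates 1 and 2, against 35.5%, 8.5% and 18.4% of those of disease replicates 3, 4 and 5. Every disease library was below both controls, and because the rule used both genes this is given as a description. Members with at least 2 Cxcl9 UMIs, 863 in all, numbered 133 and 4 in control hearts against 18, 589 and 119 in disease hearts. Beyond the rule the levels of the 2 genes also varied: in the members' summed counts Cxcl9 was at 1114 and 94.5 normalized CPM (counts relative to a fixed total) in control hearts against 2004, 3385 and 2141 in disease hearts. Fcgr4 was at 492 and 256 normalized CPM in control hearts against 334, 967 and 754 normalized CPM in disease hearts. Normalized CPM here is scaled by edgeR's trimmed mean of M-values.

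**Figure D1:**
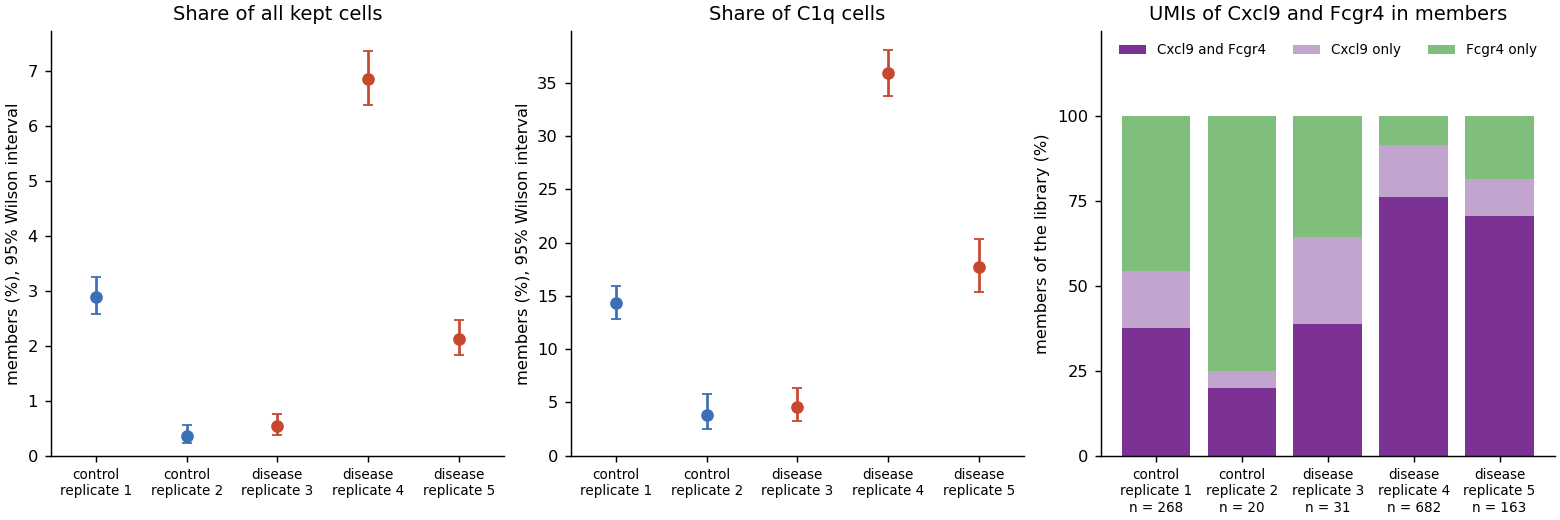
Number and makeup of the members in each library (replicates 1 and 2 control, 3 to 5 disease). Points give the members' share, in percent, of kept barcodes and of C1q-positive barcodes with 95% Wilson intervals, and stacked bars give the percent of members with both Cxcl9 and Fcgr4, Cxcl9 only or Fcgr4 only. Disease replicate 4 is highest at 6.84% of kept barcodes, and control replicate 1 at 2.89% lies above disease replicates 3 and 5 (at 1.56%, below the 1.85% of disease replicate 5, once barcodes are thinned to 2000 UMIs).

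The name was set beside macrophage genes and the markers Cd72, Ccl8 and Gbp2b, which the rule did not use. The markers were chosen with earlier results of these data known, so their levels are a description and no independent check. The 15 core macrophage genes, among them Adgre1, Csf1r, Cd68, Lyz2 and Tyrobp, summed to between 17543 and 24247 CPM in the members of each library. Cd72, a B cell and macrophage co-receptor, stood at 937 and 165 CPM in control replicates 1 and 2, against 244, 824 and 480 CPM in disease replicates 3, 4 and 5. In resident-like macrophages, here the 2253 C1q-positive barcodes with at most 1 UMI of Cxcl9 and Fcgr4 and at least 2 of the resident genes, it was between 63.3 and 81.3 CPM. The summed level of Cd72 was thus higher in members in every library. With barcodes thinned to 2000 UMIs, Cd72 was seen in 51.2% and 10.5% of the control members and 30%, 61.6% and 49.7% of the disease members, against 11.1% to 13.5% of resident-like macrophages, so in control replicate 2 the share (of 19 members) was below the 11.6% of its resident-like macrophages. Ccl8, a monocyte-drawing chemokine, was at 1083 and 0 CPM in control hearts against 119, 2553 and 2919 CPM in disease hearts, beside 34.8 to 475 CPM in resident-like macrophages. Gbp2b, a guanylate-binding protein, was at 94.9 and 6.61 CPM in control hearts against 90.7, 517 and 366 CPM in disease hearts, beside 0.519 to 66.7 CPM in resident-like macrophages. Gbp2b was higher in members than in resident-like macrophages in every library, in control replicate 2 on 1 UMI. Ccl8 went against the name in 2 libraries: the 20 members of control replicate 2 had none, and in disease replicate 3 9.68% of members had a Ccl8 UMI against 18.4% of resident-like macrophages (6.67% against 11.4% when thinned to 2000 UMIs).

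A share of the members carried few macrophage transcripts. The 193 members (16.6%) with a C1q sum of 3 to 19 UMIs had a median of 3099 UMIs, and their core macrophage genes summed to 5464 CPM, their endothelial markers to 19185 CPM and their fibroblast markers to 8763 CPM. The 971 members with a C1q sum of at least 20 had a median of 10430 UMIs and sums of 25285, 885 and 2122 CPM in that order. In the barcodes with little C1q the endothelial sum thus exceeded the macrophage sum, and the main results were also computed with the 971 alone, a limit chosen after the data were seen. At the edge of the rule, members with exactly 2 UMIs of Cxcl9 and Fcgr4 (170 barcodes) had 413 CPM of Cd72 and 49.5 of Gbp2b, and the 363 barcodes just outside with 1 such UMI had 190 and 16.1 CPM. Barcodes with 2 UMIs of the resident genes (87, just outside) had 506 CPM of the mannose receptor gene Mrc1, and those with 1 (190, just inside) had 346 CPM. At the lower C1q limit the 76 members with a sum of 3 had 38.0 CPM of Cd72 and the 256 barcodes with a sum of 2 had 32.0 CPM. Over all members Cd72 was at 781 CPM and Gbp2b at 364 CPM, and in these 76 members Gbp2b was at 4.75 CPM.

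**Figure D2:**
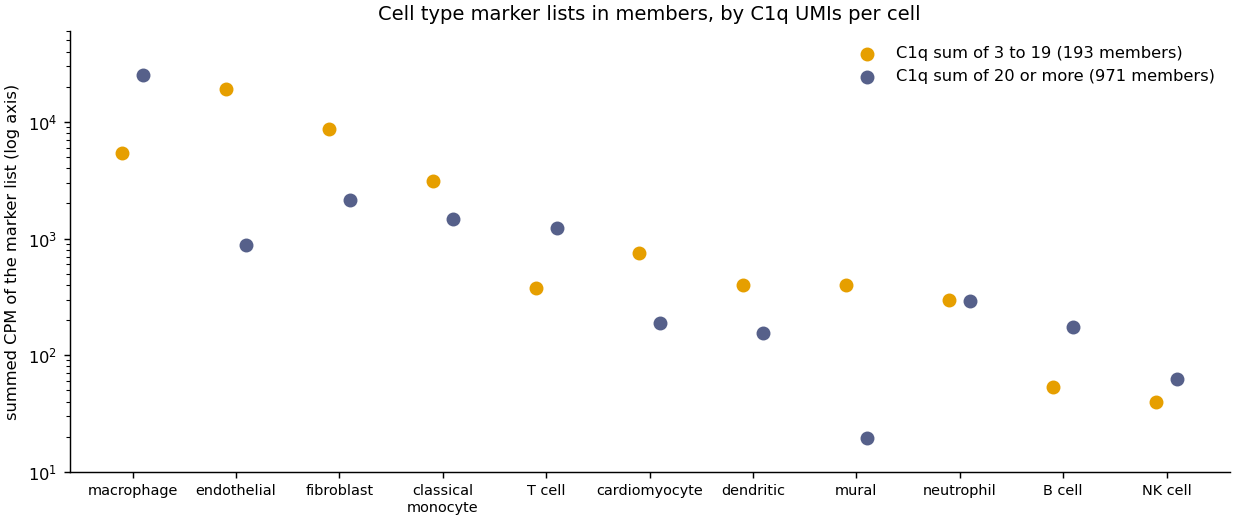
Summed CPM of marker lists in members with a C1q sum of 3 to 19 UMIs and of at least 20. Core macrophage genes reach 25285 CPM in the group with at least 20 and 5464 CPM in the other, where endothelial markers reach 19185 CPM.

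Members differed from resident-like macrophages in many genes of interferon response and antigen presentation. The rule separated these classes, so the following levels (CPM per library) describe them without a test. Serpina3g, a serine protease inhibitor gene induced by interferon-gamma, was at 167 and 39.7 CPM in the members of control replicates 1 and 2, against 103, 468 and 266 CPM in those of disease replicates 3, 4 and 5. In resident-like macrophages it stayed between 0 and 17.2 CPM, and the mean log2 ratio over the 5 libraries (with 5 CPM added to both levels) was 4.23. Ass1, an enzyme of arginine synthesis, was at 73.5 and 106 CPM in members from control hearts against 216, 286 and 232 CPM in those from disease hearts, with 2.08 to 7.07 CPM in resident-like macrophages (log2 ratio 4.01). Both genes were higher in the members of every library. The other 13 of the 15 largest ratios were those of AA467197 (3.84), the integrin gene Itgax, which encodes CD11c (3.78), the protein C receptor Procr (3.48), the elastase Mmp12 (3.48), Bcl2a1a (3.32), Fam26f (3.24), Sirpb1c (3.21), AW112010 (3.12), the nuclease Dnase1l3 (3.08), Ccrl2 (2.89), Bcl2a1d (2.87), the prostaglandin synthase Ptgs2 (2.83) and Cd274 (2.82). Bcl2a1a and Bcl2a1d are near-identical copies, so how counts divide between the pair is uncertain.

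Resident macrophage genes were lower in the members well beyond the 4 in the rule. Of 24 other resident macrophage genes, 23 were lower in the members of every library (median log2 ratio -2.34), where 31.0% of all 8263 genes compared were. Fcna, a lectin of the complement system, was at 0.943 and 0 CPM in members from control hearts against 0, 2.78 and 2.34 CPM in those from disease hearts, beside 166 to 256 CPM in resident-like macrophages. F13a1, a coagulation factor subunit, was at 51.9 and 165 CPM in members from control hearts against 43.8, 50.9 and 93.1 CPM in those from disease hearts, beside 1527 to 2159 CPM in resident-like macrophages. Mrc1 was at 249 and 397 CPM in members from control hearts against 272, 246 and 279 CPM in those from disease hearts, beside 1125 to 1480 CPM in resident-like macrophages. All 3 kept apart from the resident-like level in each library. The other large ratios were those of Ltc4s (-4.82), Cbr2 (-4.74), Ccl24 (-4.71), Fxyd2 (-3.63), Colec12 (-3.49), Chp2 (-3.25), Gas6 (-3.14), Cmah (-3.04), Ednrb (-2.87), Pf4 (-2.85), Ms4a4a (-2.80), Wwp1 (-2.73) and Npl (-2.72). With a C1q sum of at least 20 in both classes, all 30 genes kept their sign in every library.

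Among the listed groups, MHC class II genes stood higher in members throughout. All 11 compared were higher in the members of every library (median log2 ratio 1.26), where 10.5% of all genes were. Cd74, the invariant chain, was at 35765 and 36323 CPM in members from control hearts against 41827, 66913 and 54302 CPM in those from disease hearts, beside 14667 to 26004 CPM in resident-like macrophages. Of 43 interferon-gamma response genes 26 were higher in every library, of 17 MHC class I genes 9, of 27 type I interferon response genes 8, and of 18 genes of cytokines and the inflammasome 5. Il1b, a pro-inflammatory cytokine, was at 556 and 542 CPM in members from control hearts against 864, 837 and 1048 CPM in those from disease hearts, beside 101 to 206 CPM in resident-like macrophages. Ccr2, the receptor that brings monocytes into tissue, was at 145 and 39.7 CPM in control hearts against 253, 210 and 272 CPM in disease hearts, beside 17.5 to 38.4 CPM in resident-like macrophages. The level in control replicate 2 was only just above its resident-like level of 38.4 CPM. Of 15 complement genes 9 were lower and 3 higher in every library (median log2 ratio -0.53), where 31.0% and 10.5% of all genes were, with C4b (-2.00) among the lower and C3 (1.22) among the higher. Of 18 genes induced by tissue dissociation, such as Fos, Jun and Egr1, 16 were lower in the members of every library. Of 12 endothelial markers 11 were higher in the members of every library, and with a C1q sum of at least 20 in both classes 0 of 11 were.

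**Figure D3:**
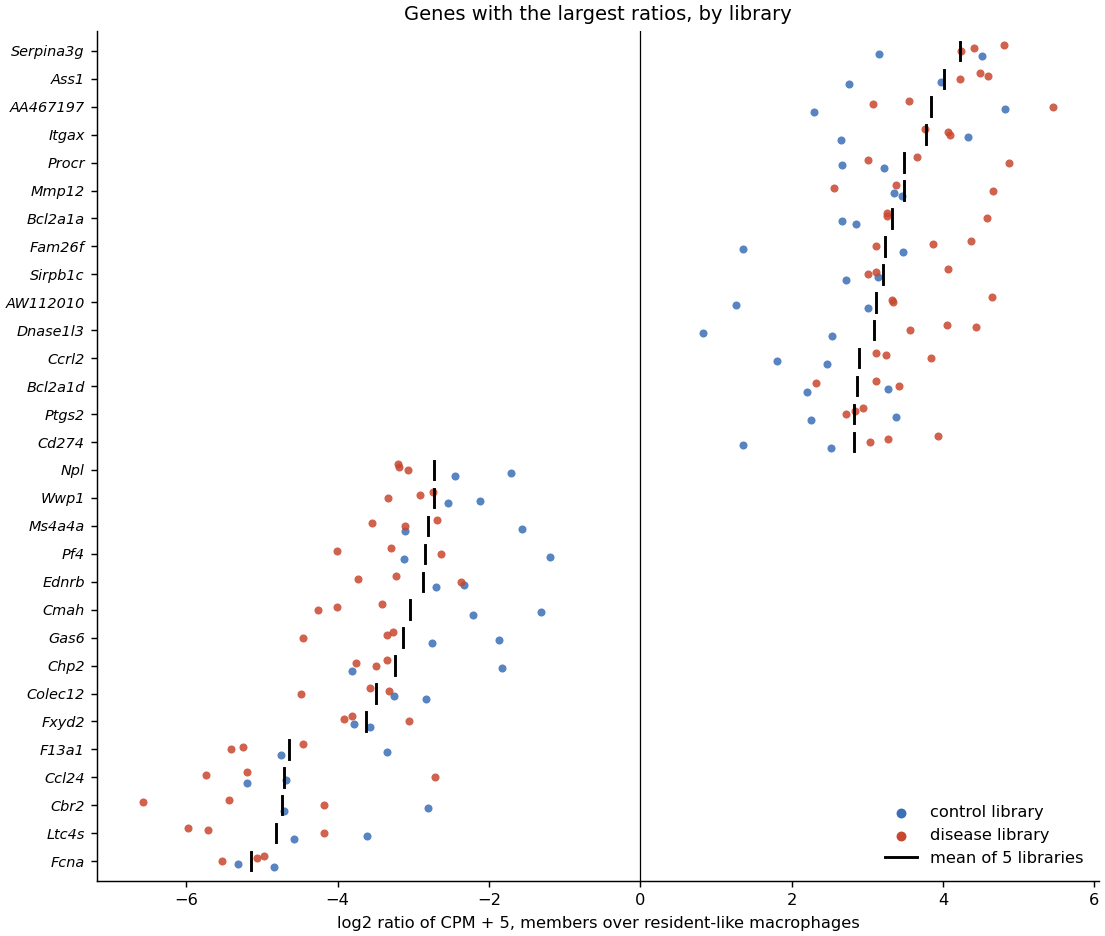
Log2 ratio of the level in members to that in resident-like macrophages for the 15 largest ratios in each direction, with 5 CPM added to both levels. Each point is 1 library and points of every gene lie on 1 side of 0, from Serpina3g with a mean of 4.23 to Fcna with a mean of -5.14.

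Members were also set beside other macrophages that were low in resident genes, again as a description. This used the 971 members with a C1q sum of at least 20 and the 567 barcodes with such a sum, at most 1 UMI of Cxcl9 and Fcgr4 and at most 1 of the resident genes (other C1q cells). Serpina3g (mean log2 ratio 3.98), Gbp2b (3.06), Ass1 (2.97), Procr (2.77), Fam26f (2.75), AA467197 (2.71), AW112010 (2.68) and Gbp2 (2.58) were the largest ratios, and each was above 0 in every library. Gbp2 was at 318 and 74.7 CPM in members from control hearts against 520, 790 and 523 CPM in those from disease hearts, beside 101 and 24.2, and 32.6, 153 and 35.4 CPM in the other C1q cells. It was lowest in both classes in control replicate 2. Interferon-gamma response genes were higher in every library for 21 of 43, where 6.90% of all genes were. For MHC class II genes this was 0 of 11 (median log2 ratio 0.31), and Ccr2 had a ratio of -0.10. F13a1 (-2.43) and Cbr2 (-2.17) had the lowest ratios, and 15 of 18 dissociation-induced genes were lower in every library, where 13.1% of all genes were.

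Within the members, those with Cxcl9 differed from those with Fcgr4 only. Members with at least 2 Cxcl9 UMIs (96, 11, 488 and 95 in control replicate 1 and disease replicates 3, 4 and 5) were set beside those with Fcgr4 only (120, 10, 52 and 30), all with a C1q sum of at least 20; control replicate 2 had 3 of the former and was left out. Of 43 interferon-gamma response genes 37 were higher in the Cxcl9 members of all 4 libraries (median log2 ratio 1.18), where 13% of all genes were. Of 17 MHC class I genes 15 were higher, and of 11 MHC class II genes 8 with a median log2 ratio of 0.23. Cd40, the receptor for the CD40 ligand of T cells, was at 177 CPM in the Cxcl9 members of control replicate 1 and at 278, 454 and 310 CPM in those of the disease libraries. In the Fcgr4-only members it was at 38.8, 23.2, 93.3 and 101 CPM in the same order, so the levels did not overlap. Other large ratios were those of the chemokine Ccl5 (3.25), Ccl8 (3.18), Serpina3g (3.12), Gbp2b (2.34) and C3 (2.12). Lower in the Cxcl9 members were Cbr2 (-2.73), the prostaglandin-degrading enzyme Hpgd (-2.28), the heat shock gene Hspa1b (-2.14) and Pf4 (-1.58). Cd72 had a log2 ratio of 0.05. Beside these, 13 of 18 dissociation-induced genes were lower in the Cxcl9 members of all 4 libraries, where 10.4% of all genes were, and 3 of 5 dendritic cell markers were higher; their part in the other ratios was not tested. The division itself rests on Cxcl9, and no test was made.

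Promoter sequences are shown for the 2 genes of the rule and for some of the genes that stand out in the results, to let the interferon motifs be read beside the levels. They are the 250 bases before the annotated start (RefSeq, GRCm38.p6), 5′ to 3′ on the gene's strand, in lower case with motif matches in capitals. The search covered 250 bases before to 50 after the start, on both strands, for GAAANNGAAA (interferon-stimulated response element; TTTCNNTTTC on the other strand) and for TTCNNNGAA (gamma-activated site, its own reverse complement). Cxcl10 (chr5:92348890-92349139, minus strand), Fcgr4 (chr1:171018676-171018925, plus strand) and Slamf8 (chr1:172590569-172590818, minus strand) held the first motif, Serpina3g (chr12:104235897-104236146, plus strand) the second, and Cxcl9 (chr5:92328080-92328329, minus strand) neither in this window. Of the genes searched but not shown, Gbp2b held the first motif, and Cd274, Cd72, Ccl8 and Ass1 held neither.
Cxcl10: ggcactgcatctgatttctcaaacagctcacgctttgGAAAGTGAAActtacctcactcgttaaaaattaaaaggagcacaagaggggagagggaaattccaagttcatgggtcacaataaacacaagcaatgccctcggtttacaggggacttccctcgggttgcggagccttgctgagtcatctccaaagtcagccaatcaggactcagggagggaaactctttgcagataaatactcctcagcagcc
Fcgr4: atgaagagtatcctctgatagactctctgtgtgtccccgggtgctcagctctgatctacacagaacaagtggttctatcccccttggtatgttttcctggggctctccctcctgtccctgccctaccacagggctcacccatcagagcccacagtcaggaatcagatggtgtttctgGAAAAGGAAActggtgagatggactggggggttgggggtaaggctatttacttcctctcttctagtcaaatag
Slamf8: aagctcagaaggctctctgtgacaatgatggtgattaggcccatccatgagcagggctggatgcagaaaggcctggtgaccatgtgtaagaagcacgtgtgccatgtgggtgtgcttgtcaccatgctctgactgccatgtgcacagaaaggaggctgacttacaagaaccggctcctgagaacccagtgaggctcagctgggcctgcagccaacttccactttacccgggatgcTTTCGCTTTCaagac
Serpina3g: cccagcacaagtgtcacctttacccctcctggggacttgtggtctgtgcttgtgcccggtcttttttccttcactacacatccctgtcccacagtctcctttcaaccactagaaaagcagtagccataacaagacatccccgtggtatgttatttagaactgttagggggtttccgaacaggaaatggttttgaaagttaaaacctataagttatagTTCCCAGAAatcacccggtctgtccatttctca
Cxcl9: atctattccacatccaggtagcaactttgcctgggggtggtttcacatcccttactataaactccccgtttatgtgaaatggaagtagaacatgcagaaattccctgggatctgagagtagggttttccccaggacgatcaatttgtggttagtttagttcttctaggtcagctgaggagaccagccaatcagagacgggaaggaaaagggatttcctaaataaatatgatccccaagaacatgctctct

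Over all 27025 genes of the RefSeq table, counting any promoter of a gene, 3.99% held the response element and 9.55% the gamma-activated site. Of the interferon-gamma response list 26 of 45 genes matched the table, of which 15 (57.7%) held the response element and 11 (42.3%) the gamma-activated site. Of the type I list 22 of 30 matched, with 13 (59.1%) and 3 (13.6%). Of the resident macrophage list 21 of 26 matched, with 1 (4.76%) and 0. A match describes these letters and is not evidence of binding.

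The main comparison asked which genes differed between disease and control within the members. Cxcl10, the other main T cell-drawing chemokine induced by interferon-gamma, was called higher in disease with all libraries. The receptor chains Ifngr2 and Ifnar2 were called lower. Slamf8 and Ccl5 were also called higher, closer to the threshold. The rule used Cxcl9, and members with Fcgr4 only made up 45.5% and 75% in control hearts against 35.5%, 8.5% and 18.4% in disease hearts. The part of this makeup in the rises was not tested. How the calls moved with subsets of members and left-out libraries is given below. Of 9386 genes tested on summed counts, 36 (0.384%) were higher and 490 (5.22%) lower in disease, 5.6% in all, at an adjusted p under 0.05 (edgeR's quasi-likelihood test with Benjamini-Hochberg adjustment). The median log2 fold change over all genes was 0.03, and 52.4% of them had a value above 0. Levels in this comparison are normalized CPM. With 1 library a pool of hearts, fewer cells of a kind and less RNA per cell cannot be told apart in such sums.

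Of 43 interferon-gamma response genes tested, 40 had a log2 fold change above 0 (median 1.25), 2 rose (Cxcl10 and Slamf8), 0 fell, 22 were higher at an unadjusted p under 0.05 (3.96% of all genes were), and 20 had all disease libraries above both controls, where 16.6% of all genes did. Cxcl10 stood at 242 and 61.2 normalized CPM in control replicates 1 and 2, against 853, 1616 and 928 normalized CPM in disease replicates 3, 4 and 5. Every disease library was above both controls, and the fold change on the log2 scale was 2.80 (SE 0.54, edgeR adjusted p 0.0165). Slamf8, a macrophage receptor that restrains the oxidative burst, was at 144 and 50.0 in control hearts against 268, 434 and 356 in disease hearts (log2 fold change 1.74, SE 0.44, edgeR adjusted p 0.0470). It was called by DESeq2 too, but not without doublets (edgeR adjusted p 0.0531) or in members with Fcgr4 (0.0561). Gbp2b was at 96.4 and 5.56 in control hearts against 95.9, 539 and 389 in disease hearts, so disease replicate 3 overlapped control replicate 1 (log2 fold change 2.45, SE 0.80, edgeR adjusted p 0.124). Cd274 was at 110 and 27.8 in control hearts against 116, 427 and 277 in disease hearts (log2 fold change 1.82, SE 0.60, edgeR adjusted p 0.126). Control replicate 2 had the lowest level of both genes, and disease replicate 3 was close to control replicate 1. Gbp2b was called with 20 members per library (log2 fold change 4.16, edgeR adjusted p 0.0341) and with every gene that had a count tested (7.54e-07), and Cd274 was called by DESeq2.

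The list's median moved with the libraries. The number of list genes higher at an unadjusted p under 0.05 (edgeR), 22 with all libraries, was 28, 6, 31, 10 and 17 with replicates 1 to 5 left out in turn. The median was 2.62 without control replicate 1, 0.81 without control replicate 2, 1.29 without disease replicate 3, 0.73 without disease replicate 4 and 1.36 without disease replicate 5. Among members with at least 2 Cxcl9 UMIs, a fit that also lacked control replicate 2 (4 such members, under the minimum of 10), it was 0.52, with 37 of 43 genes above 0 and 0 called (5 were higher at an unadjusted p under 0.05, edgeR). With 20 members drawn per library it was 1.69, with 6 of 38 genes called higher (Cxcl10, Slamf8, Gbp2b, Cd40, Fam26f and Ifi47), and with a C1q sum of at least 20 it was 1.35. Control replicate 2, with 20 members of which 75% had Fcgr4 only, had the lowest level of Cxcl10, Slamf8, Gbp2b and Cd274, and its part in the result was not tested beyond these values.

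Of 28 type I interferon response genes tested, 26 had a log2 fold change above 0 (median 0.59), 0 were called in either direction, 6 were higher at an unadjusted p under 0.05, and 8 had all disease libraries above both controls. Without disease replicate 4 the median was 0.11, with 14 of 24 genes above 0, and without control replicate 1 it was 0.34, with 19 of 28. Isg15, a ubiquitin-like protein, was at 251 and 150 normalized CPM in control hearts against 489, 569 and 394 normalized CPM in disease hearts (log2 fold change 1.23, SE 0.34, edgeR adjusted p 0.0697). With a C1q sum of at least 20 Isg15 was called, while Dusp1, Ninj1 and S100a8, described below as called, were not. Of 12 genes of interferon-gamma signalling 3 had a value above 0 (median -0.54) and 2 fell. Ifngr2, the signalling chain of the interferon-gamma receptor, was at 123 and 94.5 in control hearts against 39.7, 31.5 and 24.9 in disease hearts (log2 fold change -1.86, SE 0.32, edgeR adjusted p 0.00979). Ifnar2, a chain of the type I interferon receptor, was at 258 and 189 in control hearts against 72.8, 56.5 and 73.4 in disease hearts (log2 fold change -1.77, SE 0.31, edgeR adjusted p 0.0106). Both were lower in every disease library than in either control. In resident-like macrophages the groups were apart in the same direction, with Ifngr2 at 96.6 and 96.5 CPM in control hearts against 25.6, 28.8 and 20.5 CPM in disease hearts.

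All 11 MHC class II genes tested had a log2 fold change above 0 (median 0.78), 10 had all disease libraries above both controls, and 1 rose. All 11 were also above 0 with any 1 library left out, with medians from 0.57 to 0.92. The gene that rose was H2-DMb2, a chain of the peptide-loading chaperone, at 23.3 and 5.56 normalized CPM in control hearts against 122, 56.5 and 77.8 normalized CPM in disease hearts (log2 fold change 2.04, SE 0.48, edgeR adjusted p 0.0386). Cd74 was at 36316 and 30557 in control hearts against 44208, 69749 and 57699 in disease hearts (log2 fold change 0.78, SE 0.27, edgeR adjusted p 0.147). Among 17 MHC class I genes 13 had a value above 0 (median 0.75; 1.27 without control replicate 1), 0 rose and 1 fell. H2-D1, a classical class I heavy chain, was at 4345 and 2058 in control hearts against 734, 993 and 843 in disease hearts (log2 fold change -1.90, SE 0.34, edgeR adjusted p 0.0120). It belongs to a family of similar genes, so its counts are uncertain, and in resident-like macrophages it was at 3881 and 2828 CPM in control hearts against 766, 936 and 631 CPM in disease hearts.

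**Figure D4:**
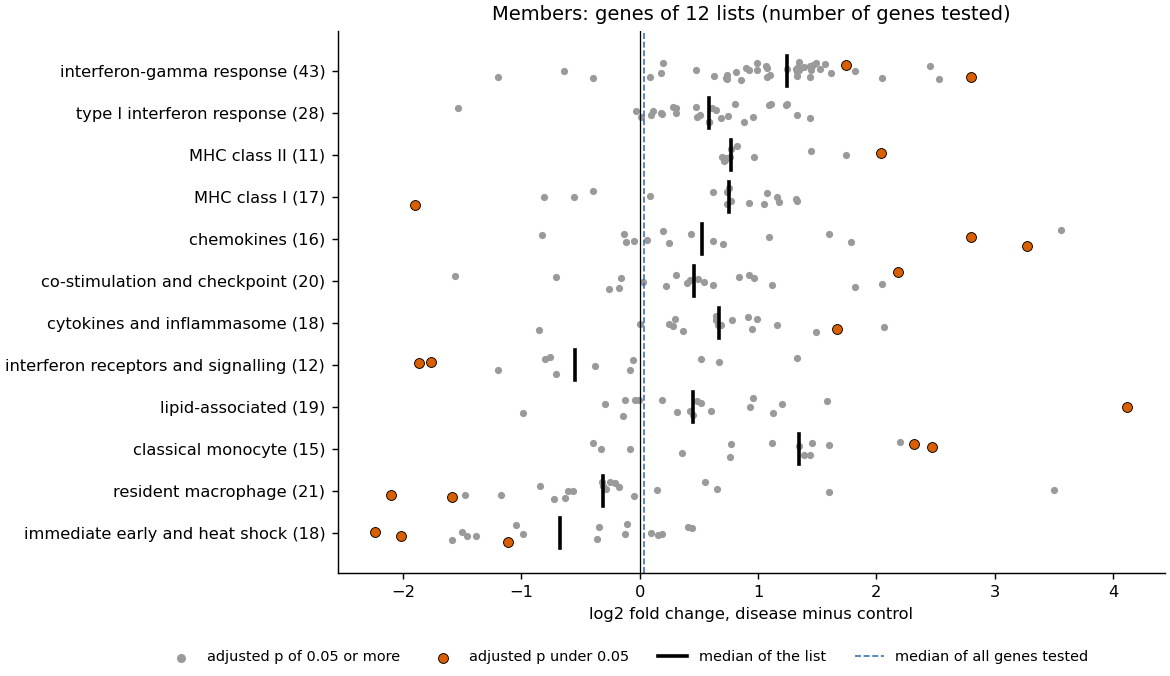
Log2 fold change, disease over control, of the genes of 12 lists in members. Each point is a gene, called genes are in orange and bars mark medians; the interferon-gamma response list has a median of 1.25 with 2 of 43 genes called, and the signalling list a median of -0.54 with 2 of 12 called.

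Among 16 chemokines 12 had a log2 fold change above 0 (median 0.53) and 2 rose, Cxcl10 and Ccl5. Without disease replicate 3 the median was 0.07, with 8 of 15 above 0, and without control replicate 1 it was 0.33. Ccl5, a chemokine made by T cells, NK cells and activated macrophages, was at 176 and 11.1 normalized CPM in control hearts against 645, 1776 and 717 normalized CPM in disease hearts (log2 fold change 3.28, SE 0.79, edgeR adjusted p 0.0400). DESeq2 did not call it (adjusted p 0.120), nor did edgeR in members with Fcgr4 (adjusted p 0.0564). Beside it, the summed level of 16 T cell markers that include Ccl5 was 206 and 33.1 CPM in control hearts against 623, 1790 and 706 CPM in disease hearts. Without Ccl5 it was 33.3 and 19.8 CPM and 12.5, 86.1 and 31.6 CPM, and 13 of the 16 genes were under 10 CPM in the members of every library. The 10 NK cell markers summed to 20.4 and 0 CPM in control hearts against 25, 90.8 and 34.0 CPM in disease hearts, and the part of T or NK cell RNA in the rise of Ccl5 was not tested. Ccl8 overlapped between the groups, at 1100 and 0 in control hearts against 126, 2661 and 3102 in disease hearts (edgeR adjusted p 0.581). Among 8 chemokine receptors 1 rose: Ccr7, which guides cells to lymph nodes, was at 7.34 and 0 in control hearts against 69.5, 26.2 and 72.8 in disease hearts (log2 fold change 3.0, SE 0.65, edgeR adjusted p 0.0255). With a C1q sum of at least 20 its log2 fold change was 6.60 (edgeR adjusted p 0.0432), so the size of the change is poorly set. Ccr7 lost the call in 6 of its 13 alternatives, and Clec9a (log2 fold change 2.44, edgeR adjusted p 0.0345) in 8 of its 14. Both are also dendritic cell markers, and the 11 dendritic cell markers summed to 97.4 and 46.3 CPM in control hearts against 185, 194 and 255 CPM in disease hearts. Their part in these rises was not tested.

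Of 20 costimulation and checkpoint genes 15 had a value above 0 (median 0.46; 0.28 without disease replicate 4) and 1 rose, Pdcd1lg2, which encodes PD-L2, a ligand of PD-1. It was at 9.89 and 0 normalized CPM in control hearts against 33.1, 29.4 and 54.7 normalized CPM in disease hearts (log2 fold change 2.18, SE 0.52, edgeR adjusted p 0.0394). Pdcd1lg2 lost the call in 9 of its 14 alternatives. Cd40 was at 111 and 11.1 in control hearts against 228, 412 and 268 in disease hearts, with no overlap (log2 fold change 2.04, SE 0.60, edgeR adjusted p 0.0833). Among 18 genes of cytokines and the inflammasome 17 had a value above 0 (median 0.67; 1.13 without control replicate 1) and 1 rose. Il1rn, the antagonist of the interleukin-1 receptor, was at 114 and 77.9 in control hearts against 387, 314 and 255 in disease hearts (log2 fold change 1.67, SE 0.35, edgeR adjusted p 0.0221). Il1b was at 565 and 456 in control hearts against 913, 872 and 1114 in disease hearts (log2 fold change 0.91, SE 0.29, edgeR adjusted p 0.114). Both genes were higher in each disease library than in either control. None of 5 Fc receptor genes, 14 complement genes or 13 metabolic enzymes was called, and 0, 2 and 2 of them were higher and 0, 0 and 2 lower at an unadjusted p under 0.05 (edgeR). Acod1, which makes itaconate, was at 44.4 and 0 in control hearts against 112, 226 and 101 in disease hearts (log2 fold change 2.21, SE 0.65, edgeR adjusted p 0.0867).

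Of 15 classical monocyte genes 12 had a value above 0 (median 1.35; 2.24 without control replicate 1) and 2 rose, both at low levels. Chil3, a chitinase-like protein, was at 6.70 and 0 normalized CPM in control hearts against 26.5, 38.3 and 31.1 normalized CPM in disease hearts (log2 fold change 2.47, SE 0.47, edgeR adjusted p 0.0155). Clec4e, a receptor for microbial glycolipids, was at 11.8 and 0 in control hearts against 33.1, 65.0 and 46.0 in disease hearts (log2 fold change 2.32, SE 0.50, edgeR adjusted p 0.0263). Of 12 nonclassical monocyte genes 0 were called and 3 were higher at an unadjusted p under 0.05 (edgeR). Ear2 was high in 2 libraries of different groups, at 126 CPM in control replicate 2 and 203 CPM in disease replicate 3 and at most 13.5 CPM in the other libraries. Of 21 resident macrophage genes 5 had a value above 0 (median -0.31) and 2 fell, Gas6, a ligand of receptors for dying cells (log2 fold change -2.10, SE 0.40, edgeR adjusted p 0.0143), and Ninj1, which mediates membrane rupture (-1.58, SE 0.37, edgeR adjusted p 0.0351; 0.0572 with a C1q sum of at least 20). Without control replicate 2 the list had 11 of 21 genes above 0, a median of 0.01 and 0 called (0 higher and 2 lower at an unadjusted p under 0.05, edgeR), and without control replicate 1 a median of -0.63. Gas6 was at 59.4 and 106 in control hearts against 6.61, 18.0 and 20.5 in disease hearts. Of 19 lipid-associated genes 1 rose, Gpnmb, at 1.6 and 0 in control hearts against 9.92, 16.4 and 47.3 in disease hearts (log2 fold change 4.12, SE 0.87, edgeR adjusted p 0.0232).

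Of 18 genes induced by tissue dissociation 5 had a log2 fold change above 0 (median -0.67), and Atf3, Dnajb1 and Dusp1 were called lower. Dusp1 (log2 fold change -1.12, edgeR adjusted p 0.0470) lost the call in 11 of its 15 alternatives, among them DESeq2 (adjusted p 0.0685), a C1q sum of at least 20 (0.0994) and members with Fcgr4 (0.0907). Without control replicate 2, 8 were above 0 and the median was -0.21. Atf3, a stress-induced transcription factor, was at 1319 and 1134 normalized CPM in control hearts against 318, 254 and 216 normalized CPM in disease hearts (log2 fold change -2.23, SE 0.29, edgeR adjusted p 0.00309). In resident-like macrophages Atf3 was at 2164 and 2136 CPM in control hearts against 523, 533 and 496 CPM in disease hearts. The groups were apart in both classes. The part of these genes in the results above was not tested.

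The 2 largest of the named rises were neutrophil genes. S100a9, which with S100a8 forms calprotectin, was at 2.23 and 0 normalized CPM in control hearts against 1214, 122 and 56.0 normalized CPM in disease hearts (log2 fold change 7.74, SE 1.70, edgeR adjusted p 0.0277). S100a8 was at 3.19 and 0 in control hearts against 906, 112 and 22.4 in disease hearts (log2 fold change 6.81, SE 1.73, edgeR adjusted p 0.0496; 0.0574 with a C1q sum of at least 20). Disease replicate 3 was the highest for both, and S100a9 lost the call in 4 and S100a8 in 9 of 14 alternatives each. The 10 neutrophil markers summed to 53.4 and 52.9 CPM in members of the controls and to 2278, 353 and 142 CPM in those of the disease libraries, and to 94.6 and 65.9 CPM and 1357, 1217 and 983 CPM in resident-like macrophages. Over all kept barcodes S100a9 was at 109 and 289 CPM in control hearts against 257, 358 and 126 CPM in disease hearts, so there the groups overlapped; the part of neutrophil RNA in these rises was not tested. Ifi205, an interferon-inducible gene of the Ifi200 family, was at 21.1 and 11.1 in control hearts against 119, 140 and 73.4 in disease hearts (log2 fold change 2.54, SE 0.44, edgeR adjusted p 0.00995).

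Other cells of the same libraries also showed the largest falls of the members. H2afj, a histone H2A variant, was at 215 and 172 normalized CPM in control hearts against 6.61, 2.25 and 3.11 normalized CPM in disease hearts (log2 fold change -6.10, SE 0.42, edgeR adjusted p 4.46e-04). In resident-like macrophages it was at 148 and 158 CPM in control hearts against 7.14, 3.03 and 5.12 CPM in disease hearts, and over all kept barcodes at 141 and 124 CPM against 4.26, 2.04 and 4.06 CPM. The other named falls were Scand1 (log2 fold change -5.01), Rnaset2b (-4.89), Snrpf (-4.89), Rnaset2a (-4.68) and the transcription factor Cebpd (-4.63), each with an edgeR adjusted p of 7.89e-04. Cebpd was at 177 and 178 in control hearts against 13.2, 4.99 and 8.71 in disease hearts. All 6 were lower in every disease library than in either control over kept barcodes too. Rnaset2a and Rnaset2b are near-identical copies with an uncertain split of counts. For falls shared by all cells of a library, the library and the genotype cannot be told apart.

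How far the calls rested on single libraries was read from 28 called genes described above for this comparison, 14 of them higher and 14 lower in disease. Genes named elsewhere for other comparisons were not among the 28, and of these Ass1 (edgeR adjusted p 0.0164), Procr (0.0232), Dnase1l3 (0.0352) and Ccrl2 (0.0458) were called higher and Sh3bp5 (0.00281), Cmah (0.0288) and Wwp1 (0.0309) lower. Without control replicate 1 none of the 14 rises passed (edgeR adjusted p from 0.117 to 0.372), with Cxcl10 at a log2 fold change of 4.21 and an adjusted p of 0.117. Without control replicate 2 only Chil3 passed, and Cxcl10 was at 2.27 with an edgeR adjusted p of 0.0700. Without disease replicate 3, Ccl5, Ccr7, H2-DMb2 and Pdcd1lg2 did not pass (adjusted p from 0.0501 to 0.0596), and without disease replicate 4, Slamf8, Chil3, Clec4e and Clec9a did not (0.0503 to 0.0683) among the 13 still tested. Without disease replicate 5, 10 of the 14 did not pass (0.0579 to 0.169), and Cxcl10, Ifi205, S100a8 and S100a9 did. Of the falls, H2afj passed with any 1 library left out, and the other 13 did not pass without control replicate 1 (adjusted p from 0.0710 to 0.185). Without disease replicate 5, 7 falls did not pass, among them Ifngr2 (edgeR adjusted p 0.0804) and Ifnar2 (0.0567). In members with at least 2 Cxcl9 UMIs, again without control replicate 2, Cxcl10 had a log2 fold change of 1.89 and an edgeR adjusted p of 0.109.

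Whether a gene changed by a different amount in members than in resident-like macrophages was tested within libraries. Resident-like macrophages with 2 or more UMIs of Cxcl9 and Fcgr4 belonged to neither class by the rule: there were 146 and 21 in control hearts against 34, 373 and 87 in disease hearts, 661 in all. The rule thus removed cells with these interferon-inducible transcripts from the class compared, most of them in disease replicate 4, and the differences for interferon-induced genes are given as values of the classes as cut. When the 661 cells were counted as resident-like, an alternative chosen after the results were seen, Cxcl10 (1.71, edgeR adjusted p 0.140), Cd40 (1.17, 0.813), Slamf8 (0.23, 1.0) and Il2rg (0.69, 1.0) did not pass. Fcrls (-2.45, edgeR adjusted p 0.00268), Slc7a11 (-2.39, 0.0162) and Cmah (-2.25, 0.0311) did pass. In the classes as cut, of 10860 genes 9 (0.0829%) had a larger and 7 (0.0645%) a smaller disease effect in members at an adjusted p under 0.05 (edgeR's quasi-likelihood test of the class by group term, with library as a block), and 2.66% and 3.66% at an unadjusted p under 0.05. Cxcl10 was at 238 and 72.7 CPM in members from control hearts against 807, 1551 and 873 CPM in those from disease hearts. In resident-like macrophages it was at 157 and 54.5 CPM in control hearts against 101, 266 and 106 CPM in disease hearts. The classes were close together in the controls and apart in each disease library, and the difference of the log2 effects was 2.41 (SE 0.30, edgeR adjusted p 3.6e-05). Cd40 was at 110 and 13.2 CPM in members from control hearts against 216, 395 and 252 CPM in those from disease hearts, beside 55.0 and 48.8, and 44.4, 59.1 and 44.4 CPM in resident-like macrophages (difference 2.03, SE 0.36, edgeR adjusted p 0.00597). Resident-like levels of Cd40 hardly varied, while the members of control replicate 2 lay below them. Both differences passed with any 1 library left out. With the 661 cells counted as resident-like, Cxcl10 in that class was at 193 and 52.1 CPM in control hearts against 113, 804 and 215 CPM in disease hearts, and Cd40 at 54.8 and 45.9 CPM against 50.4, 170 and 78.4 CPM.

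Slamf8 was at 142 and 59.5 CPM in members from control hearts against 253, 417 and 335 CPM in those from disease hearts, beside 32.3 and 15.0, and 18.0, 35.9 and 24.3 CPM in resident-like macrophages. The difference of effects was 1.69 (SE 0.30, edgeR adjusted p 0.00610), and without control replicate 1 its adjusted p was 0.0993. Il2rg, the shared chain of several interleukin receptors, was at 180 and 46.3 CPM in members from control hearts against 191, 497 and 362 CPM in those from disease hearts (difference 1.56, SE 0.32, edgeR adjusted p 0.0304). It did not pass without control replicate 1 (adjusted p 0.0865), control replicate 2 (0.137) or disease replicate 5 (0.0574), or without doublets (0.0524). Of the 9 genes with a larger effect in members 4 were haemoglobin genes, Hbb-bt (13.05), Hba-a1 (11.91), Hba-a2 (11.13) and Hbb-bs (9.30, SE 1.36), the first 3 of them below the level set for named genes and given here after their values were seen. Hbb-bs rested on 2 libraries, with 745 CPM in the members of disease replicate 5 and 716 CPM in the resident-like macrophages of control replicate 1, and at most 22.7 CPM elsewhere in these classes. With a C1q sum of at least 20 the members of disease replicate 5 had 13.9 CPM, and the difference of Hbb-bs still passed. Without Scrublet's doublets it was 3.21 with an edgeR adjusted p of 0.751, and the call was lost in 3 of its 10 alternatives.

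Fcrls, an Fc receptor-like gene of resident macrophages, was at 412 and 119 CPM in members from control hearts against 78.2, 13.3 and 46.8 CPM in those from disease hearts. In resident-like macrophages it was at 351 and 365 CPM in control hearts against 417, 293 and 470 CPM in disease hearts, a difference of effects of -3.03 (SE 0.47, edgeR adjusted p 9.0e-04). The groups did not overlap in the members and did in the other class, and without control replicate 1 the difference was -1.51 with an adjusted p of 0.459. Cmah, an enzyme of sialic acid synthesis, had a difference of -2.87 (SE 0.46), the cystine transporter Slc7a11 of -2.84 (SE 0.49), Cebpd of -1.88 (SE 0.33) and Sh3bp5 of -1.76 (SE 0.31), and none of the 4 passed without control replicate 1 (edgeR adjusted p from 0.105 to 0.359). Cmah also did not pass without disease replicate 4 (0.0574), Cebpd without disease replicates 4 (0.218) or 5 (0.0547), and Sh3bp5 without disease replicate 5 (0.210). With the 661 cells counted as resident-like, Cebpd (0.25) and Sh3bp5 (0.140) did not pass. Cmah was at 0 to 33.1 CPM in members and at 81.1 to 116 CPM in resident-like macrophages. For Slc7a11 the resident-like level was the one that differed, at 2.33 and 10.9 CPM in control hearts against 35.3, 51.0 and 35 CPM in disease hearts. Acod1 had a difference of -3.12 (SE 0.63, edgeR adjusted p 0.0287), with 0.637 and 0 CPM in resident-like macrophages of the controls, and without control replicate 1 its sign turned (3.04, edgeR adjusted p 1.0). Besides this change of sign it lost the call in 4 of its 10 alternatives. Among them were those without disease replicate 3 (0.0886) or 5 (0.0914) and with the 661 cells counted as resident-like (-0.65, 1.0).

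**Figure D5:**
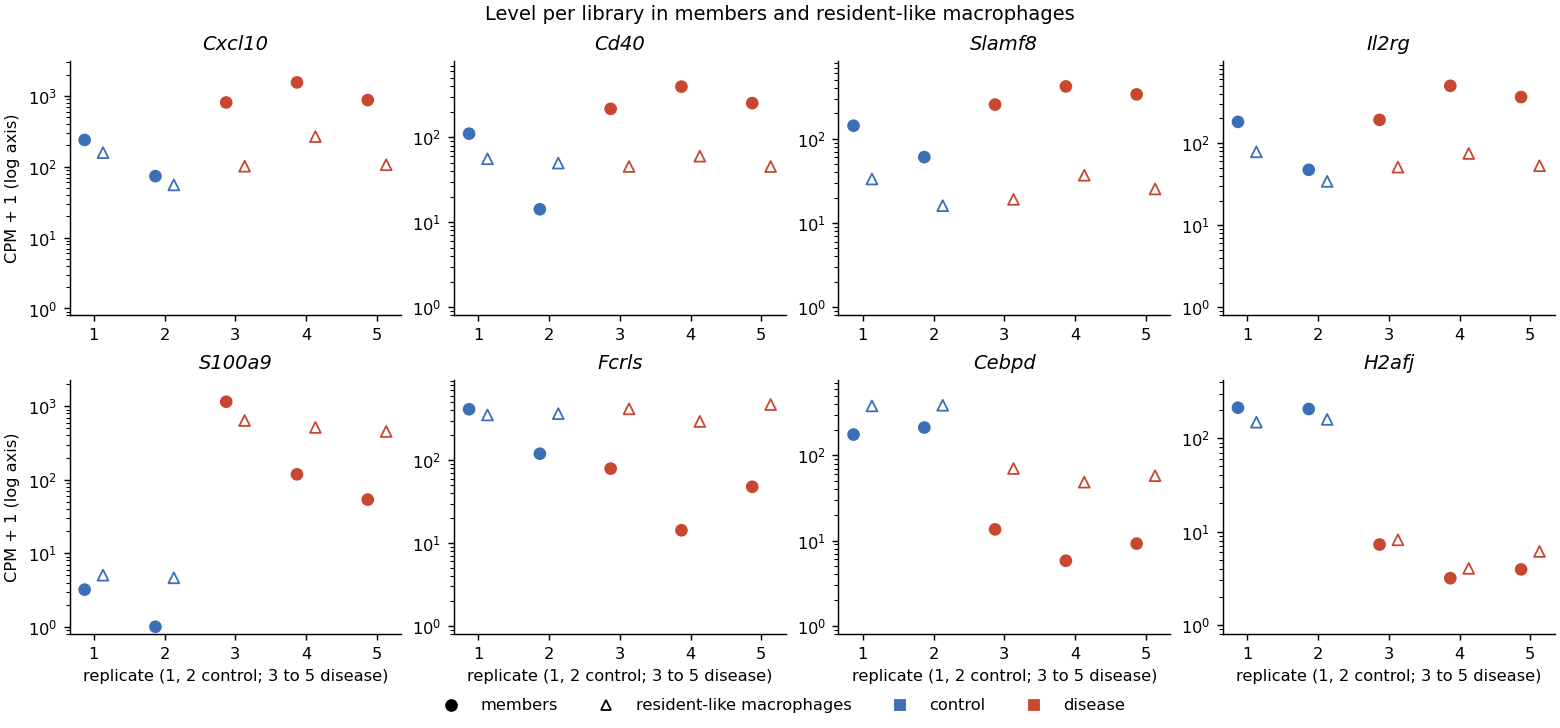
CPM + 1 on a log axis of 8 genes in the members (filled circles) and the resident-like macrophages (open triangles) of each library, control in blue and disease in red. Cxcl10 in members reaches 807 to 1551 CPM in the disease libraries against 101 to 266 CPM in resident-like macrophages, which by the rule hold at most 1 UMI of Cxcl9 and Fcgr4, while H2afj is low in both classes of every disease library.

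Against the other C1q cells 0 of 10433 genes differed in their disease effect at an adjusted p under 0.05 (edgeR), with 176 (1.69%) larger and 73 (0.700%) smaller in members at an unadjusted p under 0.05. Cxcl10 had a difference of effects of 2.45 (SE 0.60, edgeR adjusted p 1.0) and H2-DMb2 of 2.23 (SE 0.46, edgeR adjusted p 0.634). Of those other C1q cells 69% had a C1q sum of 3 to 19 UMIs, and in these the fibroblast markers summed to 34582 CPM. Cycling members were those with 2 or more UMIs of the division genes Mki67, Top2a, Birc5, Cdk1 or Ccnb2 once each cell was thinned to 1000 UMIs. They made up 1.5% and 0% of the control members and 0%, 0.448% and 0.621% of the disease members (two-sided exact permutation p = 0.7). Without thinning the shares were 3.36% and 0% of the control members and 0%, 5.28% and 5.52% of the disease members. With 20 and 31 members the counts of 0 allow shares of up to 15.0% and 9.68%.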

How the data were processed

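Single-cell RNA was counted in 5 libraries. The deposited counts are UMIs per gene and barcode in filtered matrices of 31053 genes, which per the file headers came from Cell Ranger 3.1.0. The submitters' processing notes name Cell Ranger 3, Seurat 3, GRCh38 and mm10 without roles. The members and gene lists were chosen with earlier results of these data known. Barcodes over 10% mitochondrial UMIs were left out, and Scrublet doublets (scanpy 1.11.5) were kept in the main analysis. Counts were summed per library and class (at least 10 cells) and tested with edgeR 4.0.16 in R 4.3.3 (filterByExpr, TMM, quasi-likelihood test, Benjamini-Hochberg threshold 0.05). Differences of effects between classes were fitted with library as a block. DESeq2 1.42.0 was an alternative. Shares were compared by two-sided exact permutation (scipy 1.17.1). The edgeR fit of disease against control within members was tested on simulated data, and the class by group fits and DESeq2 were not. Beyond the listed genes, the 6 largest non-overlapping changes per direction of each fit (mean log2 CPM at least 5) and the 15 largest class ratios per direction (mean CPM at least 50) were named. Numbers of members and of UMIs per library limit the precision.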

Additional observations from a re-analysis of the deposited data

Results flagged for a closer look

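In the classes as cut, the class by group term of the edgeR fit passed for 11 named genes between members and resident-like macrophages. The rule had removed resident-like macrophages with 2 or more UMIs of Cxcl9 and Fcgr4 from the class compared. The term was positive for Hbb-bs (9.30), Cxcl10 (2.41), Cd40 (2.03), Slamf8 (1.69) and Il2rg (1.56), and negative for Acod1 (-3.12), Fcrls (-3.03), Cmah (-2.87), Slc7a11 (-2.84), Cebpd (-1.88) and Sh3bp5 (-1.76), all on the log2 scale. With resident-like macrophages that had Cxcl9 or Fcgr4 UMIs counted in their class, only Fcrls, Slc7a11 and Cmah of these 11 passed. Hbb-bs also did not pass without Scrublet's doublets, and the Acod1 term turned positive without control replicate 1. The libraries behind each value are described with these genes above.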

How the results depend on the processing

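Over the named genes and their alternatives, 399 values kept their direction and side of the threshold, 155 lost the call, 3 gained it and 8 changed sign; the causes were not tested. Leaving out 1 library moved the genes called higher in members (36) between 0 and 55 and those called lower (490) between 5 and 536. It moved the genes with different effects in members and resident-like macrophages (16) between 16 and 59, and against other C1q cells (0) between 0 and 6. With the 661 barcodes that had both resident genes and Cxcl9 or Fcgr4 counted as resident-like, an alternative chosen after seeing the data, the number against resident-like macrophages was 9. With every gene that had a count tested, the 4 numbers were 164, 825, 67 and 9. In members with Fcgr4 21 were called higher. The next 2 alternatives also lost control replicate 2, which had fewer than 10 such members, and leaving out that library alone gave 7 higher and 246 lower. With Cxcl9 and Fcgr4 summing to at least 3, 11 genes were called higher and 304 lower, and in members with at least 2 Cxcl9 UMIs 0 higher (195 at an unadjusted p under 0.05, edgeR) and 132 lower. DESeq2 called 30 higher and 225 lower, and with 20 members per library, where 3239 genes were tested against 9386, 24 were higher and 102 lower. Without control replicate 1, 0 were called higher, with 803 at an unadjusted p under 0.05 (edgeR). Without a control library, the lone control is assumed to vary like the others. The difference in share of kept barcodes ranged from -0.298 to 2.86 points over the left-out libraries, turning negative without disease replicate 4, and was 2.58 with thinning to 2000 UMIs. The difference in cycling share (-0.395 points) ranged from -1.15 to 0.357 over the left-out libraries (0.357 without control replicate 1) and was 1.92 without thinning. The log2 fold change of Cd72 in members (-0.04) was 0.00244 with RLE size factors, 0.0308 with DESeq2, 0.0372 at a mitochondrial limit of 5%, 0.00234 with a C1q sum of at least 20, and from -0.75 (without control replicate 2) to 1.97 (without control replicate 1) over the left-out libraries, with 0.257 without disease replicate 3 and 0.0106 without disease replicate 5. The difference of effects for Acod1 ranged from -3.19 without disease replicate 4 to 3.04 without control replicate 1. The C1q sum of at least 20 was an alternative chosen after seeing the data. No paired analysis was possible because control and disease libraries share no replicate numbers. With 20 and 31 members, control replicate 2 and disease replicate 3 limit what low genes can show.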
